A study of Mus musculus with 4 samples.

Results

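Expression of 9 genes of microglia and the complement system was read in the mouse suprachiasmatic nucleus (SCN), the hypothalamic seat of the master circadian clock. The genes were C1qa, C1qb, C1qc, C4b, Ctss, Cx3cr1, P2ry12, Csf1r and Trem2, and each was measured by the probesets that the platform annotation assigns to that gene alone. All 9 genes had exactly 1 such probeset, out of 22180 genes with a probeset of their own. The samples were 4 Affymetrix arrays with 1 array in each group: control mice (non-HPX) at Zeitgeber time (ZT) 2, non-HPX mice at ZT14, hypophysectomized mice (HPX, with the pituitary gland removed) at ZT2, and HPX mice at ZT14. All mice were kept in 12 h of light and 12 h of darkness, so ZT2 lies in the day and ZT14 in the night. The nucleus was isolated by laser microdissection and tissue was pooled, from 10 animals per time point according to the design text, which does not make clear whether these are 10 in each surgical state or 10 over both. The sources used here do not give the strain, age or sex, the interval since surgery, or whether controls had a sham operation. No group had a replicate, so no difference between 2 arrays below has a replicate check, and how much single animals vary is unknown.

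Microglia are the resident macrophages of the brain. They make C1q, the protein that starts the classical complement cascade, from 3 chains encoded by C1qa, C1qb and C1qc. C1q activates its proteases, which cleave C4 and C2. Cleavage of C3 is a later step, and fragments of C4 and C3 tag targets such as synapses for removal. Cx3cr1, P2ry12, Csf1r and Trem2 are surface receptors through which microglia sense neurons, nucleotides, growth factors and lipids, and Ctss encodes cathepsin S, a lysosomal protease. C4b differs from the other genes in that astrocytes and oligodendrocytes are known brain sources of it.

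Values are log2 expression values after robust multi-array averaging (RMA). The floor for calling a gene expressed was 6.02 on its brightest array, which is the midpoint of that quantity over all genes; 11090 genes lay at or above it, the 9 genes among them. Levels of different probesets are not comparable with each other. The tissue label was checked first: all 12 of 12 SCN markers were expressed, with the neuropeptide gene Vip between 11.6 and 11.9. Among defining microglial markers outside the 9 genes, Fcrls, Tyrobp, Cd68 and P2ry13 were expressed. Tmem119 (5.60 to 5.77), Aif1 (5.36 to 5.60), Itgam (5.71 to 5.97) and Ptprc (3.89 to 4.11) stayed under the floor. All 21 measured markers of blood leukocytes were under it as well.

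The C1q genes lie side by side on chromosome 4. C1qb and C1qc are shown here as neighbours in this cluster, C1qb being the gene of the 9 with the smallest p for time of day, and P2ry12 as a microglial receptor gene from elsewhere. The sequences are the 250 bases before the annotated start of transcription, written 5′ to 3′ along the gene (RefSeq, GRCm38.p6). Capitals mark matches to GGAAGT, the core bound by the ETS family of factors, to its longer form GAGGAAGT preferred by the myeloid factor PU.1, and to CACGTG, the E-box bound by the clock activators. ACTTCC and ACTTCCTC are the reverse complements.

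C1qb promoter, chr4:136886201-136886450, minus strand: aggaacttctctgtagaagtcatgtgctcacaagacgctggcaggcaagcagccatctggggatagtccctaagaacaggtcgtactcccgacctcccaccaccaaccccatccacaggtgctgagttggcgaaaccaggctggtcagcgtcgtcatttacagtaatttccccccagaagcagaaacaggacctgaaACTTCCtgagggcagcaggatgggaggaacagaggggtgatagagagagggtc

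C1qc promoter, chr4:136892915-136893164, minus strand: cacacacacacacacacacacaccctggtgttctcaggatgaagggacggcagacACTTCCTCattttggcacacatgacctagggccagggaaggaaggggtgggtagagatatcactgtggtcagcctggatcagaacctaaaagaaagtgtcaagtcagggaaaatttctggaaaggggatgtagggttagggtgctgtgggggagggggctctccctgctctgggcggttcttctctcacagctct

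P2ry12 promoter, chr3:59262986-59263235, minus strand: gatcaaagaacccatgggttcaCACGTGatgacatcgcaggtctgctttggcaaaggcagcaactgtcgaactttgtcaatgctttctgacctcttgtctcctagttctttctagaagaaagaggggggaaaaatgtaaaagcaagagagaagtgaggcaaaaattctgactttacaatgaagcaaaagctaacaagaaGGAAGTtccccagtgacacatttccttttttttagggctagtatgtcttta

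Promoter windows of 300 bases, which add the 50 bases after the start, were held for 6 of the 9 genes: C1qb, C1qc, Ctss, Cx3cr1, P2ry12 and Trem2. Searched on both strands, GGAAGT was found in 4 of the 6 (C1qb, C1qc, Ctss and P2ry12), against 23.8% of 32851 windows of all genes. GAGGAAGT, every match of which is also a GGAAGT match, was found in C1qc, 195 bases before the start, and in Ctss, where it spans the start; 3.2% of all windows held it. CACGTG was found in P2ry12, 228 bases before the start, and in 7.15% of all windows. The glucocorticoid response element, AGAACA followed after 3 bases by TGTTCT, was in 0 of the 6 and in 3 of all windows. Such matches describe the letters only.

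C1qa and C1qb stood lower at night than by day and lower after hypophysectomy, while C1qc was nearly level. C1qb, which encodes the B chain, had 8.01 at ZT2 and 7.76 at ZT14 in non-HPX, and 7.86 and 7.53 in HPX. Both night values lay below both day values. The night difference was thus -0.25 in non-HPX and -0.33 in HPX (log2). C1qa, the A chain, had 7.02 and 6.85 in non-HPX and 6.79 and 6.64 in HPX. Here both HPX values lay below both non-HPX values, by 0.23 at ZT2 and 0.21 at ZT14. C1qc, the C chain, had 6.51 and 6.43 in non-HPX and 6.51 and 6.47 in HPX, a range of 0.08 over the 4 arrays. The protein needs all 3 chains; whether their differences are unlike was not tested. Since the tissue was measured in bulk, fewer cells of a type and less RNA per cell cannot be told apart.

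A model with additive effects of time of day and surgery was fitted to all 11090 expressed genes with limma, and its p-values were adjusted over all of them (Benjamini-Hochberg). It averages each effect over the other factor and takes the interaction of both factors as noise, with 1 residual degree of freedom per gene, so its error rests mostly on the spread shared by all genes. For time of day C1qb had the smallest p of the 9 genes, with an effect of -0.29 ± 0.11 (SE; 95% interval -0.54 to -0.04; unadjusted p = 0.0266), but it did not pass (adjusted p = 0.506, and 0.361 to 0.698 over the alternative settings). C1qa had -0.16 ± 0.11 for time (adjusted p = 0.799) and -0.22 ± 0.11 for surgery (95% interval -0.47 to 0.03; adjusted p = 1). C1qb had -0.19 ± 0.11 for surgery, and C1qc had -0.06 for time and 0.02 for surgery.

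**Figure D1:**
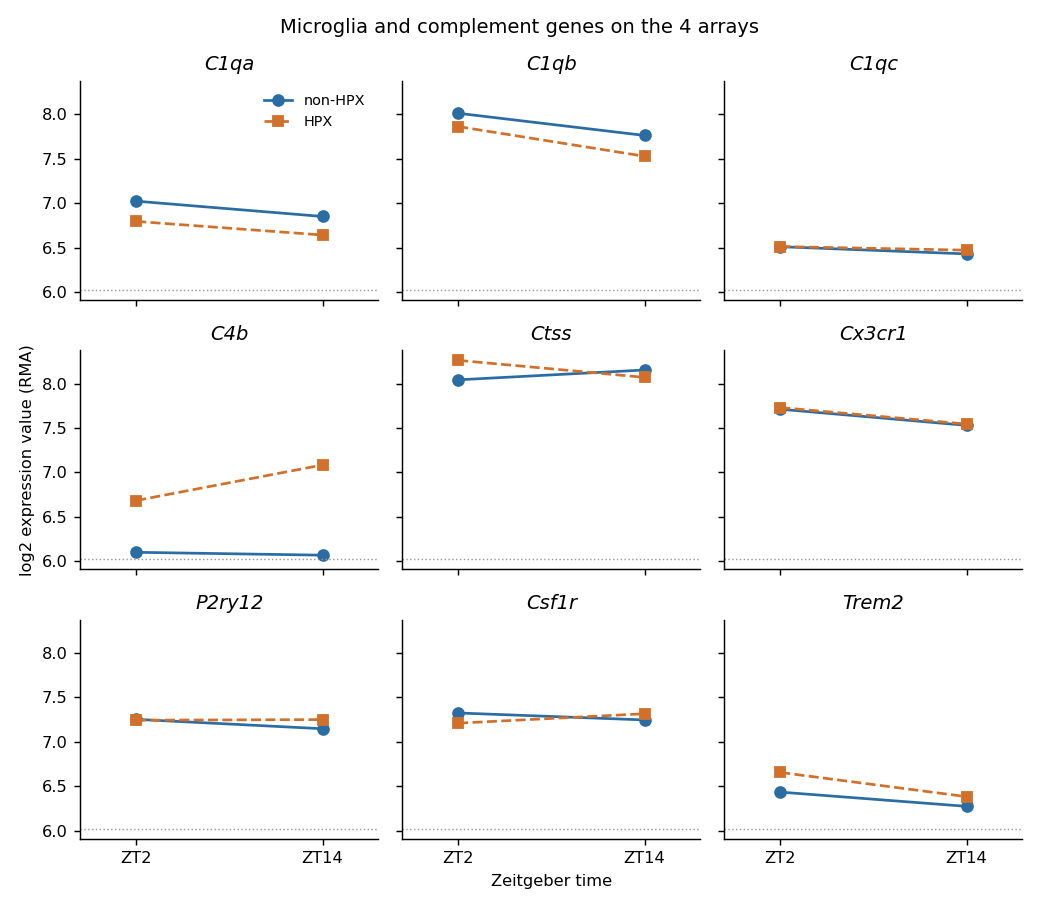
Log2 expression value (vertical axis) of each of the 9 genes at ZT2 and ZT14 (horizontal axis) in non-HPX (blue circles, solid lines) and HPX (orange squares, dashed lines); each point is 1 array and the dotted line is the expression floor of 6.02. C4b is the gene whose lines lie farthest apart, with 6.10 and 6.07 in non-HPX against 6.68 and 7.08 in HPX.

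C4b, which encodes complement component C4, had the largest difference of the 9 genes. Its values were 6.10 at ZT2 and 6.07 at ZT14 in non-HPX, and 6.68 and 7.08 in HPX. Both HPX values lay above both non-HPX values, and the non-HPX values lay just above the floor of 6.02. HPX exceeded non-HPX by 0.58 at ZT2 and by 1.02 at ZT14, or 2.02-fold at night. Among the 11090 expressed genes the ZT14 difference ranked 2 from the highest and the ZT2 difference 27. Between day and night C4b differed by -0.03 in non-HPX (0.01 when arrays were centred on their medians) and by 0.40 in HPX. Whether these night differences are unlike was not tested, for want of replicates.

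In the additive limma fit the surgery effect on C4b was 0.80 ± 0.13 (SE; 95% interval 0.51 to 1.09), with an unadjusted p of 0.000128. It did not pass the threshold of 0.05 after adjustment over all genes (adjusted p = 0.0832). With each array centred on the median of the expressed genes the effect was 0.84 and passed (adjusted p = 0.00379); across the other settings the adjusted p ran from 0.0712 to 0.916, the last without the filter on low values. In this fit 15 of 11090 genes passed for surgery, all of them lower in HPX, and the surgery effect on C4b ranked 2 from the highest. Its time effect was 0.18 ± 0.13 (adjusted p = 0.818).

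C4b lies in the major histocompatibility region beside a near-identical copy, C4a, and how far the probeset of one reads RNA of the other is uncertain. The C4a probeset had 4.46 and 3.72 in non-HPX and 4.04 and 4.20 in HPX, all under the floor, and its HPX differences were -0.42 and 0.48. Of the 5 nearest genes on each side with a probeset of their own, 7 were expressed (Ppt2, Prrt1, Fkbpl, Atf6b, Stk19, Dxo and Skiv2l). Their HPX differences ran from -0.50 (Prrt1) to 0.20 (Stk19) at ZT2 and from -0.24 (Fkbpl) to 0.37 (Prrt1) at ZT14, all below that of C4b at either time. Since the C4b differences ranked 27 and 2 from the highest of all expressed genes, nearly any other gene would lie below them.

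Other cell types that can make C4 were read beside it. The 13 astrocyte markers, all expressed, averaged 8.73 and 8.71 in non-HPX and 8.57 and 8.55 in HPX at ZT2 and ZT14, and 14 oligodendrocyte markers averaged 7.73, 7.71, 7.75 and 7.63 in the same order. The astrocyte filament gene Gfap, a marker of reactive astrocytes, had 9.02 and 9.12 in non-HPX and 9.14 and 9.01 in HPX. Interferon response genes, of which 9 were expressed, averaged 6.30 and 6.21 in non-HPX and 6.59 and 6.25 in HPX, and their median HPX difference was 0.35 at ZT2 and 0.07 at ZT14. The interferon average was highest on the HPX array at ZT2, and C4b on the HPX array at ZT14. Ifit1, 1 of the 9 interferon response genes, had 5.72 and 5.51 in non-HPX and 6.53 and 5.76 in HPX. Only its HPX value at ZT2 reached the floor, so it entered this average through the array where it is high. Rtp4, another of them, entered through the day arrays. The filter thus set part of the order of the arrays in this average, and no contrast with C4b is drawn from it. The part of these cells and genes in the C4b values was not tested.

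Ctss had 8.04 at ZT2 and 8.15 at ZT14 in non-HPX, and 8.26 and 8.07 in HPX. The order of the arrays crossed: HPX was 0.22 above non-HPX by day and 0.08 below it at night. The surgery effect was 0.07 ± 0.12 and the time effect -0.04 ± 0.12 (adjusted p = 1 and 0.990). Of 11 other expressed cathepsins and their inhibitors, 0 passed the limma fit for either factor, 1 having an unadjusted p under 0.05 for time of day and 2 for surgery, against 8.21% and 4.68% of all genes tested. The cystatin gene Cst3, whose product inhibits cathepsins, had 10.3 and 10.1 in non-HPX and 10.1 and 9.68 in HPX (surgery effect -0.32, adjusted p = 0.916). Ctsb, the cathepsin gene with the highest probeset value, stayed between 11.0 and 11.2.

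Among the receptor genes of microglia, P2ry12 and Csf1r had narrow ranges over the arrays and Trem2 the widest. Cx3cr1, the receptor for the neuronal chemokine fractalkine, had 7.71 and 7.53 in non-HPX and 7.73 and 7.55 in HPX. Night lay below day by nearly the same amount in both states, -0.18 and -0.19, and the states were within 0.02 of each other at both times. The time effect of -0.18 ± 0.11 did not pass (95% interval -0.43 to 0.07; adjusted p = 0.745).

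Trem2, a lipid-sensing receptor, had 6.43 and 6.27 in non-HPX and 6.66 and 6.38 in HPX. Night was lower in both states, by 0.16 and 0.27, and HPX was higher at both times, by 0.22 and 0.11. Neither effect passed (time -0.22 ± 0.11, adjusted p = 0.667; surgery 0.17 ± 0.11, adjusted p = 1). The adaptor of Trem2, Tyrobp, had 6.58 and 6.18 in non-HPX and 6.39 and 6.20 in HPX, a time effect of -0.30 ± 0.12 (unadjusted p = 0.0287, adjusted p = 0.518).

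P2ry12, the ADP receptor that guides microglial processes, had 7.25 and 7.15 in non-HPX and 7.24 and 7.25 in HPX, a range of 0.11. Csf1r, the receptor on which microglia depend for survival, had 7.33 and 7.25 in non-HPX and 7.21 and 7.32 in HPX, a range of 0.11. The intervals of their effects covered 0 and reached at most 0.30 from it (surgery, P2ry12 -0.21 to 0.30 and Csf1r -0.28 to 0.24; time, P2ry12 -0.30 to 0.20 and Csf1r -0.24 to 0.27). The sign of the surgery effect of Csf1r, -0.02, turned under both alternative scalings.

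Ligands and partners of these receptors were read next to them. Of 11 expressed partner genes, 0 passed in the limma fit, while 4 had an unadjusted p under 0.05 for time of day and 0 for surgery, against 8.21% and 4.68% of all genes tested. Cx3cl1, which encodes fractalkine, had 8.40 at ZT2 and 8.59 at ZT14 in non-HPX, and 8.19 and 8.84 in HPX. Il34, a ligand of Csf1r, had 6.12 and 6.36 in non-HPX, and 5.96 and 6.59 in HPX. Both ligands were higher at night in both states, by 0.19 and 0.65 for Cx3cl1 and by 0.24 and 0.64 for Il34, and the time effects were 0.42 ± 0.13 and 0.44 ± 0.13 (adjusted p = 0.365 and 0.295). The other Csf1r ligand, Csf1, had 7.02, 6.87, 6.98 and 7.04 in the same order. Clusterin (Clu), a lipid carrier that also binds Trem2 and has the highest probeset value of the partners, lay between 10.2 and 10.4.

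Taken over all 9 genes, night values lay below day values in 8 genes in non-HPX and in 6 in HPX. The median night difference was -0.11 and -0.15, against -0.03 and 0.04 over all expressed genes. In non-HPX it was -0.06 with centred arrays and -0.18 under the stricter filter, which keeps 3 of the 9, and in HPX it was -0.09 with the C1q genes left out. Centring moves every gene of a difference by the same amount, so the median over all expressed genes moves with it. In both states at the same time 5 of the 9 were lower at night (C1qa, C1qb, C1qc, Cx3cr1 and Trem2), a share of 55.6%, against 25.4% of all expressed genes. By size 0 of the 9 were at least 1.5-fold apart between day and night in non-HPX, where 1.12% of all expressed genes were, and 0 in HPX, where 1.80% were. For time of day 0 of the 9 passed the limma fit, against 0.541% of all genes tested, and 1 (C1qb) had an unadjusted p under 0.05, against 8.21%.

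For surgery the 9 genes had a median of 0.00 at ZT2 and 0.04 at ZT14, against -0.06 and 0.01 over all expressed genes. With the C1q genes left out these medians were 0.12 and 0.09, and with centred arrays the ZT2 median was 0.10. The median over all expressed genes moves with centring here too. HPX exceeded non-HPX at both times in 4 of them (C1qc, C4b, Cx3cr1 and Trem2), a share of 44.4% against 15.7% of all expressed genes, but in C1qc by 0.00 and 0.04 and in Cx3cr1 by 0.02 at both times. At least 1.5-fold apart was 1 gene at ZT14 (C4b, higher), against 0.622% of expressed genes. At ZT2 it was 0, against 0.848%. C4b, at 0.583, was then just short of the 0.585 that 1.5-fold makes on the log2 scale, and next came Trem2 and Ctss at 0.22. By limma 0 of the 9 passed for surgery, against 0.135% of all genes, and 1 (C4b) had an unadjusted p under 0.05, against 4.68%. A night difference and an HPX difference that use the same array are not independent of each other.

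**Figure D2:**
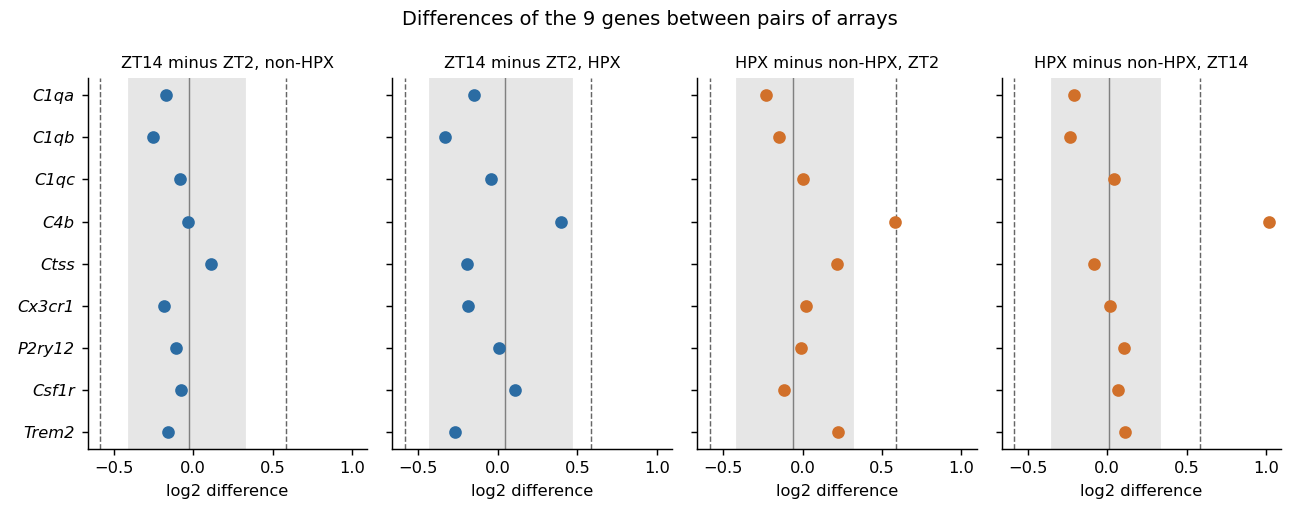
Log2 difference (horizontal axis) of each of the 9 genes (rows) for the 4 pairs of arrays; each point is a difference between 2 arrays. Grey bands span the central 95% of all 11090 expressed genes, the grey line is their median and dashed lines mark 1.5-fold; C4b lies outside the band in both HPX comparisons and the other genes lie inside it.

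**Figure D3:**
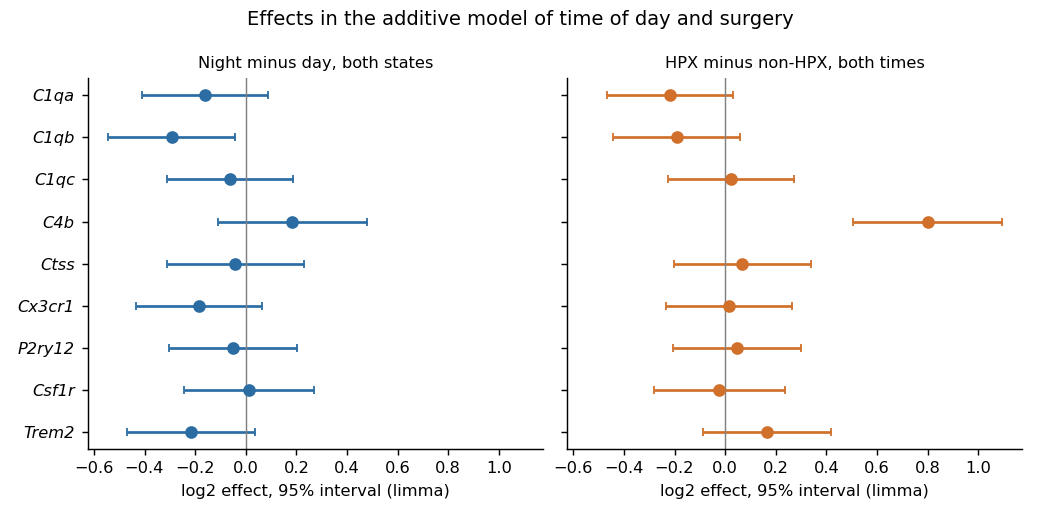
Effects of time of day (left, night minus day) and of surgery (right, HPX minus non-HPX) on the log2 scale for each of the 9 genes, with 95% intervals from the additive limma fit to 4 arrays. The interval lies clear of 0 for C1qb at night (-0.54 to -0.04) and for C4b after surgery (0.51 to 1.09), neither of which passed the adjustment over all genes.

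Other microglial genes were compared through a list of 45, of which 44 were measured and 19 expressed. Ly86, which encodes MD-1, the partner of the Toll-like receptor homologue CD180, fell at night. It had 7.76 at ZT2 and 7.06 at ZT14 in non-HPX, and 8.01 and 7.34 in HPX, so both night values lay below both day values. Its time effect was -0.69 ± 0.11 (SE; limma adjusted p = 0.0270) and it was the only gene of the list to pass for time of day; it no longer passed without the filter on low values or when probesets were fitted in place of genes. The surface ligand gene Selplg differed by -0.49 and -0.46 at night (adjusted p = 0.169), and the Fc receptor gamma chain Fcer1g by -0.20 and -0.40 (adjusted p = 0.518). Lower at night in both states were 11 of the 19, a share of 57.9% against 25.4% of all expressed genes. A share above 25.4% was not particular to microglial lists. Among markers of other cells it was 46.7% for endothelial and mural, 42.9% for oligodendrocyte, 41.7% for SCN and 33.3% for border macrophage markers. For astrocyte markers it was 23.1%, and for neuron markers and for ependymal and choroid plexus markers 20%. The medians of the 19 microglial genes were -0.15 in non-HPX and -0.05 in HPX, against -0.03 and 0.04 over all expressed genes. For surgery 0 of the 19 passed and 1 had an unadjusted p under 0.05, against 4.68% of all genes tested. The list's surgery medians were -0.04 and -0.01. Rhob, with the highest mean value of the list over the 4 arrays and a gene many cell types express, differed by -0.37 and -0.01 after surgery.

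The rest of the complement system was represented by 52 listed genes, of which 47 were measured and 18 expressed. Most components downstream of C1q were under the floor, among them C2 (3.64 to 3.98), the proteases C1ra, C1rb and C1s1, factor B (Cfb), C5 (Hc) and C6 to C9; C3 was not analysed here. Among receptors, C3ar1, C5ar1, C5ar2, Itgax and Itgb2 were under it too. By limma 0 of the 18 passed for time of day or surgery. At an unadjusted p under 0.05 were 1 (Cd55) for time of day and 2 (Cd93 and Sez6l2) for surgery. Over all genes tested these shares were 8.21% and 4.68%. Cd55, which shields cells from complement, was higher at night, by 0.26 and 0.33 (adjusted p = 0.507). Cd93, once described as a C1q receptor and expressed by endothelium, had 5.89 and 5.96 in non-HPX and 6.24 and 6.20 in HPX (surgery effect 0.29 ± 0.11, adjusted p = 0.937). Both non-HPX values lay under the floor, so Cd93 entered the fit through the HPX arrays, where it is high. Sez6l2, of a family of neuronal complement regulators, was lower in HPX by 0.46 and 0.23 (adjusted p = 0.828). The chaperone gene Calr, whose product can bind C1q, had the highest probeset value and differed by -0.35 at ZT2 and 0.23 at ZT14. The list's medians for surgery were -0.11 and 0.06, and for night -0.01 and 0.04.

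C1q-like proteins outside complement share the globular domain of C1q and act at synapses or as hormones. Of 22 measured genes 6 were expressed and 0 passed the limma fit. At an unadjusted p under 0.05 were 1 for time of day and 2 for surgery, against 8.21% and 4.68% of all genes tested. Cbln1, which encodes the synapse organiser cerebellin, had 6.21 and 6.02 in non-HPX and 5.69 and 5.44 in HPX, lower after surgery by 0.53 and 0.59 (unadjusted p under 0.05, adjusted p = 0.190). Both HPX values lay under the floor, so Cbln1 entered the fit through the non-HPX arrays, where it is high. Caprin2, with the highest probeset value of these, stayed within 7.62 to 7.69.

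Genes linked to activated microglia gave 0 passes for either factor in the limma fit. At an unadjusted p under 0.05 there was 1 for time of day, from the disease-associated programme, and 1 for surgery, from the cytokines. Over all genes tested the shares were 8.21% and 4.68%. The gene for time of day was Tyrobp, the adaptor of Trem2 described above. It is also counted among the other microglial genes and the receptor partners, so the counts of these lists overlap. Among 13 expressed genes of the disease-associated programme, Apoe had 7.40 and 7.24 in non-HPX and 7.46 and 7.39 in HPX, Axl differed after surgery by -0.28 and -0.02, and Fth1, with the highest probeset value, by -0.06 and -0.00. The programme's markers Cst7, Clec7a, Itgax and Gpnmb were under the floor. The medians of its expressed genes for surgery were -0.06 and -0.00. Of 4 expressed antigen presentation genes, B2m differed after surgery by 0.23 and -0.09 and H2-K1 by -0.28 and 0.35. Of 6 expressed cytokine and chemokine genes, Il18 was lower in HPX by 0.22 and 0.31 (adjusted p = 1) and Cxcl14 was within 0.09 of level. Il1b, Tnf, Il6 and Ccl2 were under the floor.

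Interferon response genes, which microglia share with other cells, were lower at night in 6 of 9 expressed genes in both states, a share of 66.7% against 25.4% of all expressed genes. The median night difference was -0.05 in non-HPX and -0.47 in HPX. By limma 0 passed over all genes, with 5 of the 9 at an unadjusted p under 0.05 for time of day and 3 for surgery, against 8.21% and 4.68% of all genes; with centred arrays Rtp4 passed for time of day. Rtp4 had 6.17 and 5.75 in non-HPX and 6.72 and 5.96 in HPX (time effect -0.59 ± 0.12, adjusted p = 0.0925). Both of its night values lay under the floor, so it entered the fit through the day arrays, where it is high. Ifit1 reached the floor on the HPX array at ZT2 alone, where it is high. Ifitm3, with the highest probeset value, had 7.36, 7.45, 7.71 and 7.23 in the same order.

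**Figure D4:**
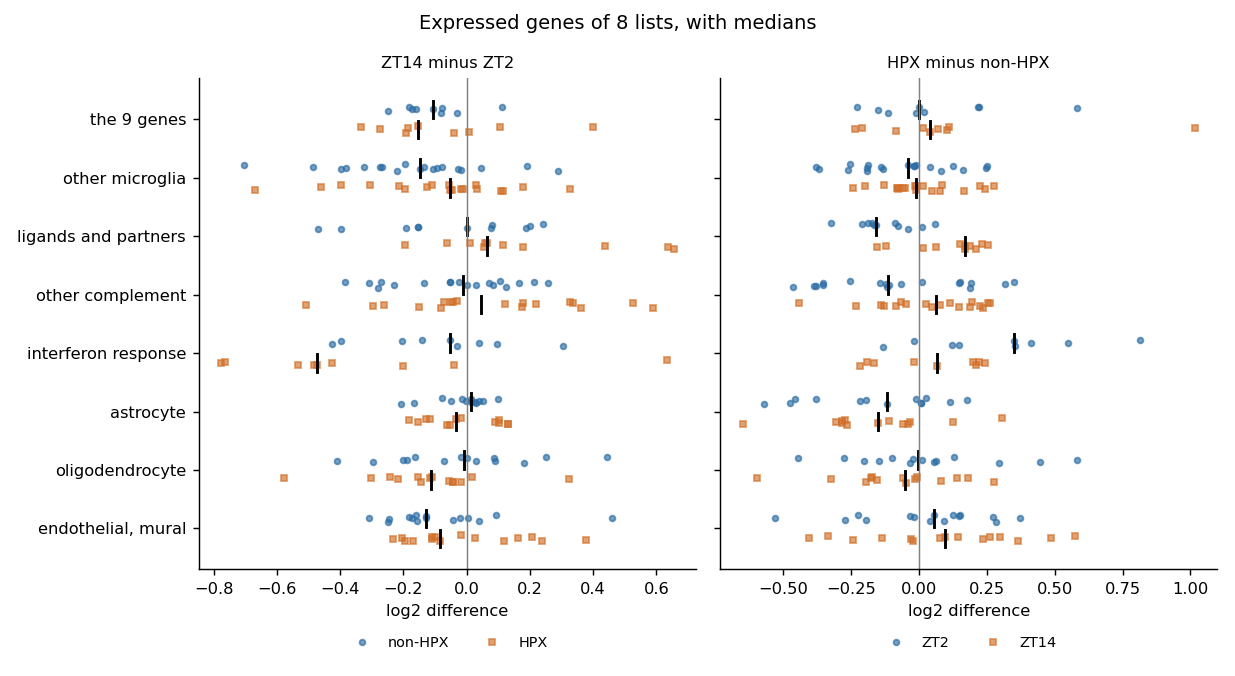
Log2 differences (horizontal axis) of the expressed genes of 8 lists (rows): ZT14 minus ZT2 on the left, in non-HPX (blue circles) and HPX (orange squares), and HPX minus non-HPX on the right, at ZT2 (blue circles) and ZT14 (orange squares). Each point is 1 gene and black bars are list medians; for night the 9 genes have medians of -0.11 and -0.15 and the other microglial genes -0.15 and -0.05, and on the right C4b is the point at 1.02.

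Among markers of other cells, the SCN genes Prok2, which fell at night, and Rasd1, which rose, were the only ones to pass the limma fit; without the filter on low values Rasd1 no longer passed. At an unadjusted p under 0.05 for surgery there were 4 of 13 expressed astrocyte markers and 2 of 14 oligodendrocyte markers. There were also 5 of 15 endothelial or mural and 1 of 10 neuron markers, against 4.68% of all genes tested. For time of day there were 8 of 12 SCN and 2 of 14 oligodendrocyte markers, against 8.21% of all genes tested. Of the markers with the highest probeset values, the astrocyte gene Aldoc had 11.3 and 11.2 in non-HPX and 10.8 and 10.9 in HPX, the myelin gene Mobp 9.82, 9.91, 9.62 and 9.32 in the same order, the endothelial Itm2a 8.03 to 8.15, the neuronal Snap25 12.0 to 12.1 and the ependymal Ccdc153 8.69 to 8.83. Border macrophage markers had 3 expressed genes of 13 measured, with Mrc1, Cd163, Lyve1 and Pf4 under the floor; Cd209a, with the highest probeset value of the 3, is the mean of 2 probesets. Endothelial and mural markers, 15 expressed, had medians of -0.13 and -0.08 for night and 0.06 and 0.10 for surgery, and 10 expressed neuron markers -0.17 and 0.09 for night and -0.21 and 0.10 for surgery. For 14 expressed oligodendrocyte markers the night medians were -0.01 and -0.11, for 13 astrocyte markers 0.01 and -0.03, and for 5 ependymal and choroid plexus markers 0.12 and -0.04. The surgery medians at ZT2 and ZT14 were -0.00 and -0.05 for oligodendrocyte and -0.12 and -0.15 for astrocyte markers. For ependymal and choroid plexus markers they were 0.02 and -0.24, against -0.06 and 0.01 over all expressed genes. The part of these cell types in the values of the 9 genes was not tested.

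The mean profile of the 9 genes, each centred on its own mean, was 0.01 and -0.09 in non-HPX and 0.08 and 0.00 in HPX. Without C4b it was 0.06 and -0.05 in non-HPX and 0.06 and -0.07 in HPX, so that C4b sets much of its shape. The genes nearest to the profile of all 9, by the root mean square difference over the 4 arrays and among 8023 expressed genes with at least as wide a range, were Zfp39, Pink1, Myh9, Zzz3 and Tmem87b, with differences from 0.0097 to 0.014 on the log2 scale. None of them is a microglial marker on the lists used here. For C4b alone, a profile singled out after its values were seen, 63 genes had as wide a range, and the nearest was Slc7a11, which encodes the cystine transporter, with a root mean square difference of 0.14. Slc7a11 had 5.40 and 5.01 in non-HPX and 5.69 and 6.11 in HPX, so only its HPX value at ZT14 reached the floor.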

How the data were processed

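RNA of laser-microdissected SCN tissue was hybridised to 4 Affymetrix arrays, 1 per group; per the labels' protocols, 5.5 µg of fragmented cDNA (WT PLUS kit) was used for each. The deposited table holds log2 values; per the submitters' processing notes the authors used Expression Console with RMA. RMA forces the arrays onto 1 intensity distribution, which hides any shift common to most genes. Array medians were 5.448 to 5.516. The HPX array at ZT2 had the highest median and the smallest SD (2.027, against 2.051 to 2.064 on the others). At ZT2 65.6% of all expressed genes were lower in HPX than in non-HPX. The number of arrays limits the precision.

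Of 41345 probesets, 23521 named exactly 1 gene, 1814 several and 16010 none; the first were averaged per gene. Entrez identifiers of all 9 members matched the RefSeq table of GRCm38.p6. Differences between arrays carry no p-value. The additive model was fitted with limma 3.58.1 (lmFit, eBayes, R 4.3.3) over 11090 expressed genes, with two-sided p-values, adjusted by Benjamini-Hochberg and called under 0.05. The code was also run on simulated data. Their noise was drawn from the fit itself and held no interaction of the factors, so that run does not test the model's assumptions. Other steps used Python 3.11.15 with pandas 2.3.3.

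Named were all 9 members and, of 18 further gene lists, genes passing limma or 1.5-fold apart the same way in both differences of a kind, the expressed gene with the highest mean, and the 5 genes nearest the members' mean profile; others named were chosen after their values were seen. The highest probeset value of a list means the highest mean over the 4 arrays. Members and lists were chosen with earlier results of these data known. Alternatives were no filter, a filter at the 75 percentile, cyclic loess, median-centred arrays, a variance trend, probesets in place of genes, the probeset with the highest mean, 1.3-fold, and the C1q genes left out; leaving out C4b was added after seeing the data.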

Additional observations from a re-analysis of the deposited data

Results flagged for a closer look

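With 1 array per group, a gene is listed here where its difference had opposite signs in the 2 surgical states or at the 2 times; these contrasts were not tested, and the direction was opposite in 48.4% of all expressed genes for night and in 56.2% for surgery. The night difference of C4b was -0.03 in non-HPX and 0.40 in HPX, 0.43 apart. That of Ctss was 0.11 and -0.19, which is -0.30 apart, that of P2ry12 was -0.11 and 0.01 (0.11 apart) and that of Csf1r was -0.08 and 0.11 (0.18 apart). The same arrays give the surgery differences: Ctss had 0.22 at ZT2 and -0.08 at ZT14 (-0.30 apart), P2ry12 had -0.01 and 0.10 (0.11 apart) and Csf1r had -0.11 and 0.07 (0.18 apart). Some of these signs depended on the scaling. With centred arrays the night difference of C4b in non-HPX was 0.01, higher as in HPX. For P2ry12 the night difference in HPX was -0.02 after cyclic loess and -0.05 with centred arrays, lower as in non-HPX. Its surgery difference at ZT2 was 0.04 and 0.09 in these settings, higher as at ZT14.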

How the results depend on the processing

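No paired analysis was possible because each group has 1 array and the labels give no replicate numbers; the additive fit itself already compares the states within each time and the times within each state. Of 64 recomputed counts and medians of the 9 genes, 57 kept their side of the threshold or moved by less than 0.118. That is the prior SD of the limma fit, which is shared over all expressed genes. It is a wide margin for medians this close to 0. Part of the tally was fixed in advance, since all 9 genes had 1 probeset and passed the floor. Dropping the filter or taking the probeset with the highest mean could therefore move none of the 36 differences. The medians and fold counts drawn from them could not change under these settings either. The ZT2 surgery median ran from -0.0040 with C4b left out to 0.12 with the C1q genes left out. The rest of the 64 were as follows. With arrays centred on their medians 1 of the 9 (C4b) passed for surgery, in place of 0. C4b counted as at least 1.5-fold higher at ZT2, making 1 gene in place of 0, after cyclic loess (0.60) and with centred arrays (0.68). A limit of 1.3-fold gave 1 gene (C4b) at ZT2, and 1 for night in HPX. The stricter filter, at a floor of 7.46, kept C1qb, Ctss and Cx3cr1 alone; it left 0 genes past 1.5-fold at ZT14 and a median of -0.083 there in place of 0.04. The surgery effect of Csf1r, -0.02, turned to 0.0042 after cyclic loess and 0.0205 with centred arrays. Under cyclic loess 2 of 36 differences of the 9 genes changed sign and with centred arrays 3, from deposited values of at most 0.032 in size. Over all genes, the limma fit passed 60 genes for time of day and 15 for surgery; the counts were 1 and 0 without the filter (1615 and 1169 at an unadjusted p under 0.05), 122 and 22 with centred arrays, 36 and 10 under the stricter filter, and 34 and 9 for probesets. C4b was not tested under the stricter filter, since its highest value lay below that floor.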
